A study of Mus musculus with 6 samples.

Results

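The transcripts of 10 genes of the DNA methylation machinery were followed in spermatogonia of adult mice. The genes were taken by name for their known roles: Dnmt1, Uhrf1 and Uhrf2 for maintenance of the mark, Dnmt3a, Dnmt3b and Dnmt3l for its deposition on unmodified DNA, Tet1, Tet2 and Tet3 for its oxidation, and Mbd2 as a reader. All 10 were present among the 24973 genes of the expression table. The 2 sorted populations were compared: undifferentiated spermatogonia (β-2M-SPα-6+c-kit-, hereafter c-kit- cells), the population that holds the spermatogonial stem cells, and differentiating spermatogonia (β-2M-SPα-6+c-kit+, hereafter c-kit+ cells). Both came from FVB/N mice aged 2 to 3 months, lacked β-2 microglobulin, effluxed Hoechst dye as a side population and carried α-6 integrin, so that c-kit was the marker that set them apart. Each population had 3 samples of 10000 cells, with 1 mouse per sample. Total RNA (500 pg) was amplified and hybridized to Affymetrix Mouse Gene 2.0 ST arrays. Whether a mouse gave both populations is not stated, and p-values therefore measure only the spread between these samples.

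Methylation of cytosine in CpG dinucleotides is copied at each replication by DNMT1, which UHRF1 brings to hemimethylated DNA behind the fork. New marks are written by DNMT3A and DNMT3B, in germ cells with the catalytically inactive cofactor DNMT3L, and the TET dioxygenases oxidize 5-methylcytosine to 5-hydroxymethylcytosine and further products that can be lost passively or excised. MBD2 binds methylated CpG and recruits the NuRD complex, a nucleosome remodeler and histone deacetylase. In the male germ line most methylation is laid down before birth in prospermatogonia, and spermatogonia maintain it through their divisions.

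Promoter sequence is shown for the 4 genes whose values were lower in every c-kit- than in every c-kit+ sample. RefSeq start sites (GRCm38.p6) were matched for 9 of the 10 genes, in 16 windows of 250 bases before a start. Mbd2 was not matched. Motifs of 3 kinds were searched on both strands: the E2F-type octamers TTTCCCGC, TTTGGCGC, TTTCGCGC and TTTGCCGC, the GC box GGGCGG, and the CCAAT box CCAAT. Among all 32807 windows of the same length, 1.86% held an E2F-type octamer, 32.7% a GC box and 33.8% a CCAAT box, and the median number of CpG was 6. The octamers and the GC box contain CG themselves, and these shares were not matched for CpG content. Capitals mark the motifs found in the Tet3 and Dnmt3b windows, and only the E2F-type octamer in the stretches of Dnmt1 and Uhrf1. Each sequence runs 5′ to 3′ on the strand of its gene.
Tet3, chr6:83441679-83441928, minus strand: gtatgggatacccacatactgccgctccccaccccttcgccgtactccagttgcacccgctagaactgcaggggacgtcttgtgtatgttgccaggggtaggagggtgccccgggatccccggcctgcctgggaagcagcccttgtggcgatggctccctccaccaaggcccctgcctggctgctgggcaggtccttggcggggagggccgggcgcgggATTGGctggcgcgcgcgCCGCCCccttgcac
Dnmt3b, chr2:153649199-153649448, plus strand: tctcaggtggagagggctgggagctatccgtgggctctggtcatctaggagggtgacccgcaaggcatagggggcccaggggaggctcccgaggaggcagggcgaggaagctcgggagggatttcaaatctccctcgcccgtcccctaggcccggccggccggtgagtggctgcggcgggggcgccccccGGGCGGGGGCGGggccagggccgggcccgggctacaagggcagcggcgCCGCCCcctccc
Dnmt1, around the motif before the third listed start, chr9:20952824-20952853, minus strand: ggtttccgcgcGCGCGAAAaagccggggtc
Uhrf1, around the motif before the second listed start, chr17:56304117-56304146, plus strand: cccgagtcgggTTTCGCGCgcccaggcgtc

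The Tet3 window held 17 CpG, 1 CCAAT box and 1 GC box, and the Dnmt3b window held 21 CpG and 3 GC boxes. An E2F-type octamer occurred in 2 of the 16 windows, 1 of the 3 of Dnmt1 and 1 of the 2 of Uhrf1. Both carried the octamer TTTCGCGC, which lay on the opposite strand for Dnmt1, 219 to 212 bases before the start, and on the gene's strand for Uhrf1, 185 to 178 bases before it. A GC box occurred in 12 windows and a CCAAT box in 5. CpG content differed widely among the genes, with 51 CpG for Tet2, 38, 40 and 15 for the windows of Dnmt3a, 23 for Uhrf2, 15 for Tet1 and 5, 4 and 3 for the windows of Dnmt3l. The Dnmt1 windows had 2, 7 and 26 CpG and the Uhrf1 windows 10 and 30. The E2F-type octamers lay in the windows with 26 and 30 CpG. A motif match describes these letters only, and neither methylation nor binding at these promoters was measured here.

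Expression values are log2 values normalized by the authors by robust multi-array average (RMA). The 6 arrays had medians between 5.25 and 5.33. A gene was called when its adjusted p in limma was under 0.05 over all genes. The sort was visible in Kit, the gene of the c-kit receptor, at 6.07, 6.35 and 6.03 in c-kit- samples and 9.84, 9.85 and 9.69 in c-kit+ samples (log2 fold change, c-kit- minus c-kit+, -3.64, adjusted p = 6.67e-06). All 16 markers of undifferentiated spermatogonia were called higher in c-kit- cells. The study had already listed these genes in the c-kit- profile of the same arrays, so this count is not an independent check. The other marker lists were also chosen with results of these data known. Of 10 markers of differentiating spermatogonia 7 were called lower and 1, Ccnd2, higher, and of 12 leptotene and zygotene markers 9 were called lower. Markers of other cells also differed. Of 14 leukocyte genes 3 were called lower (Cd74, H2-Ab1 and C1qb), with mean levels per array of 5.24, 5.36 and 5.06 in c-kit- samples and 6.37, 6.06 and 5.23 in c-kit+ samples, so that c-kit+ replicates 1 and 2 stood above the other 4 arrays. Of 8 endothelial genes 4 were called higher (Pecam1, Cdh5, Tek and Flt1), with means of 5.07 to 5.20 in c-kit- samples and 4.62 to 4.80 in c-kit+ samples. Of 9 Leydig and peritubular genes 1 was called (Tagln, lower), as was 1 of 12 spermatid genes (Odf2, lower), and of 12 Sertoli genes none passed. Few calls did not mean low signals. Spermatid genes had mean levels of 9.33, 9.07 and 9.63 in c-kit- samples and 9.29, 9.24 and 9.52 in c-kit+ samples, far above the array medians. Sertoli genes had means of 5.97 to 6.13 in c-kit- samples and 6.07 to 6.24 in c-kit+ samples. How much RNA came from such cells was not tested. Genes that respond to cell dissociation were called higher in 12 of 18 cases, with means of 7.69 to 7.86 in c-kit- samples and 6.69 to 6.81 in c-kit+ samples. The part of these differences in the results below was not tested. In bulk samples, fewer cells that express a gene and less RNA per cell cannot be told apart.

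Of the 10 genes, 2 were called: Tet3 was lower and Mbd2 higher in c-kit- cells. Over all genes 18.1% were called, 9.33% higher and 8.79% lower, so that the share among the 10 was near that of the table. The study asked for more than 1.5-fold and p under 0.02 before adjustment. With these thresholds applied to the limma p, Tet3 and Mbd2 passed as well, against 12.9% of all genes. The populations did not overlap for 5 of the 10 genes, with Dnmt1, Uhrf1, Dnmt3b and Tet3 lower and Mbd2 higher in c-kit- samples. Non-overlap occurred for 35.1% of all genes, 15.9% higher and 19.1% lower. At an unadjusted p under 0.05 in limma, 4 of the 10 genes passed (Dnmt1, Dnmt3b, Tet3 and Mbd2), against 29.9% of all genes.

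**Figure D1:**
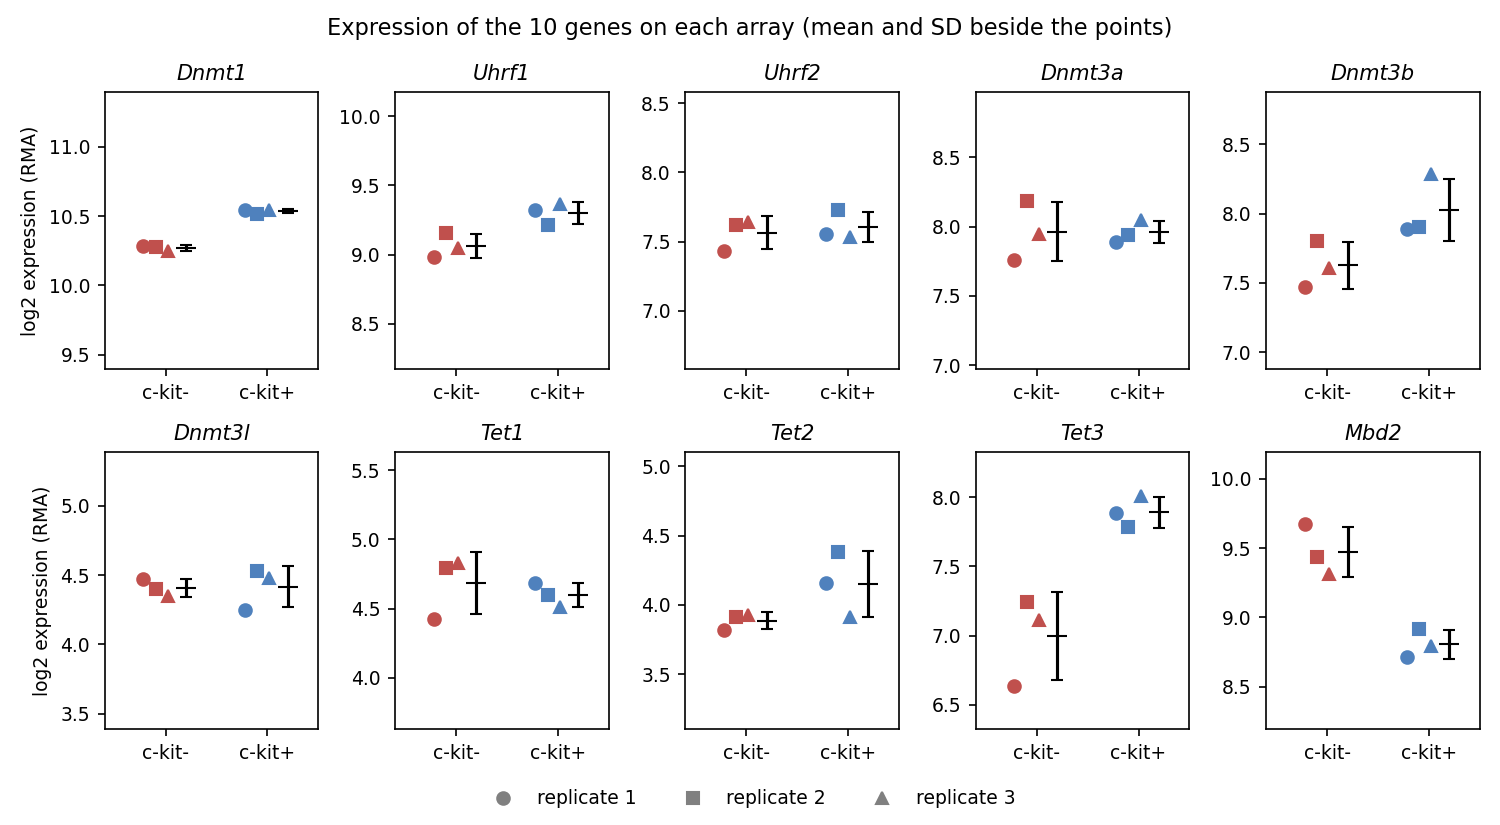
Log2 expression (RMA, vertical axis, 2 units high in every panel) of the 10 genes on each of the 3 c-kit- arrays (red, left) and 3 c-kit+ arrays (blue, right), with symbols for the replicate number and the mean and SD beside the points. The Tet3 values in c-kit- samples lie between 6.64 and 7.24, below all c-kit+ samples, and the Mbd2 values between 9.31 and 9.67, above all of them.

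Among the maintenance genes, Dnmt1, the maintenance methyltransferase, was 10.28, 10.28 and 10.25 in c-kit- samples and 10.54, 10.52 and 10.54 in c-kit+ samples. The 2 sets were tight and did not overlap. The c-kit- mean was 10.27 ± 0.02 and the c-kit+ mean 10.53 ± 0.01 (SD, n = 3 each), and the log2 fold change was -0.26 (SE 0.10, 95% interval -0.48 to -0.05) with a limma adjusted p of 0.0983. limma weighs a gene's own variance against that of all genes, and the call of Dnmt1 depended on this step, as did those of Tet3 and Mbd2 below. With a prior variance that depends on the mean level its adjusted p in limma was 0.0157, and with no variance shared between genes, the per-gene test named in the study's methods, it was 0.00924. Its difference was -0.26 in both, and Dnmt1 was not called in the other 14 alternatives. Uhrf1, which brings DNMT1 to hemimethylated DNA, was 8.98, 9.15 and 9.05 in c-kit- samples and 9.32, 9.21 and 9.36 in c-kit+ samples. The lowest c-kit+ value lay just above the highest c-kit- value. The log2 fold change was -0.24 (95% interval -0.48 to 0.00, adjusted p = 0.175). Uhrf2, its paralog, was 7.43, 7.62 and 7.64 in c-kit- samples and 7.55, 7.73 and 7.54 in c-kit+ samples, and the sets overlapped. Its difference of -0.04 had a 95% interval of -0.30 to 0.22.

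The de novo methyltransferases differed in pattern by description. Dnmt3b was 7.47, 7.80 and 7.61 in c-kit- samples and 7.89, 7.90 and 8.29 in c-kit+ samples, with every c-kit- value below every c-kit+ value. The c-kit- mean was 7.63 ± 0.17 and the c-kit+ mean 8.03 ± 0.23 (SD, n = 3 each), and the log2 fold change was -0.40 (SE 0.15, 95% interval -0.74 to -0.06), which did not pass after adjustment (limma, adjusted p = 0.104). Dnmt3a was 7.76, 8.18 and 7.95 in c-kit- samples and 7.89, 7.94 and 8.05 in c-kit+ samples. All c-kit+ values fell inside the range of the c-kit- values, and the difference was 0.00 (95% interval -0.30 to 0.30). Dnmt3l, the cofactor without catalytic activity, was 4.47, 4.40 and 4.35 in c-kit- samples and 4.25, 4.53 and 4.48 in c-kit+ samples. The sets overlapped, with a difference of -0.01 (95% interval -0.27 to 0.25). Isoforms of a gene share 1 value on this array, and binding of probes to related pseudogenes was not tested.

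Within an array, Dnmt3b minus Dnmt3a was -0.29, -0.38 and -0.33 in c-kit- samples and 0.00, -0.04 and 0.24 in c-kit+ samples. These differences varied less among the c-kit- samples than either gene alone, since both genes were lowest in c-kit- replicate 1 and highest in replicate 2. Among the c-kit+ samples their SD was 0.15, above that of Dnmt3a (0.08) and below that of Dnmt3b (0.23). The change between the populations was -0.40 and did not overlap. Differences of 5 gene pairs were compared in this way, chosen after their values were seen, and a two-sided exact permutation test on 3 against 3 arrays cannot give a p below 0.1. Dnmt3b minus Dnmt3a reached that limit, with an adjusted p of 0.167 over the 5 pairs.

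Among the TET genes Tet3 had the largest difference of the 10 genes. Tet3 was 6.64, 7.24 and 7.11 in c-kit- samples and 7.88, 7.78 and 8.01 in c-kit+ samples, without overlap. The gap between the populations was wider than the range of the c-kit+ values and narrower than that of the c-kit- values. The c-kit- mean was 6.998 ± 0.32 and the c-kit+ mean 7.89 ± 0.11 (SD, n = 3 each). Tet3 was 1.86-fold lower in c-kit- cells, with a log2 fold change of -0.89 (SE 0.16, 95% interval -1.27 to -0.52, limma adjusted p = 0.00671), and the exact permutation p was 0.1, the smallest this design allows. The call held when any 1 of the 6 arrays was left out, with log2 fold changes between -1.02 and -0.72 and adjusted p between 0.00808 and 0.0309. Without shared variance its adjusted p was 0.0730. Without both c-kit+ arrays with high leukocyte genes, which leaves 1 c-kit+ array, the log2 fold change was -1.01 (limma adjusted p = 0.121).

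Tet1 was 4.43, 4.79 and 4.83 in c-kit- samples and 4.68, 4.60 and 4.51 in c-kit+ samples, with overlap and a difference of 0.08 (95% interval -0.22 to 0.39). Tet2 was 3.82, 3.91 and 3.93 in c-kit- samples and 4.16, 4.38 and 3.91 in c-kit+ samples. Only c-kit+ replicate 3 overlapped with the c-kit- samples, and the difference was -0.26 (95% interval -0.58 to 0.05, limma adjusted p = 0.243). Without both c-kit+ arrays with high leukocyte genes, which leaves 1 c-kit+ array, the Tet2 difference was -0.02. The means of Tet1, Tet2 and Dnmt3l lay below the median of the arrays, 5.28, so that 3 of the 10 genes were read from weak signals, and the table gives no detection calls. Tet3 minus Tet1 within an array was 2.31 ± 0.12 for c-kit- arrays and 3.29 ± 0.17 for c-kit+ arrays (SD, n = 3 each), and Tet3 minus Tet2 was 3.11 ± 0.26 for c-kit- arrays and 3.74 ± 0.35 for c-kit+ arrays. Both changes, -0.98 and -0.63, had an exact permutation p of 0.1 and an adjusted p of 0.167 over the 5 pairs. The differences of Uhrf1 minus Uhrf2 and of Dnmt1 minus Uhrf1 overlapped between the populations, with changes of -0.20 and -0.03.

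Mbd2, the reader, moved the other way. Its values were 9.67, 9.44 and 9.31 in c-kit- samples and 8.71, 8.92 and 8.79 in c-kit+ samples, with no overlap. The c-kit- mean was 9.47 ± 0.18 and the c-kit+ mean 8.81 ± 0.10 (SD, n = 3 each), which gave a 1.59-fold higher level in c-kit- cells (95% interval 1.30 to 1.94). The log2 fold change was 0.67 (SE 0.13, limma adjusted p = 0.00776), and the exact permutation p was again 0.1. With any 1 array left out the log2 fold change lay between 0.57 and 0.75 and the adjusted p between 0.0114 and 0.0354. Without shared variance the adjusted p was 0.0514, and without both c-kit+ arrays with high leukocyte genes the log2 fold change was 0.68 (limma adjusted p = 0.151).

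**Figure D2:**
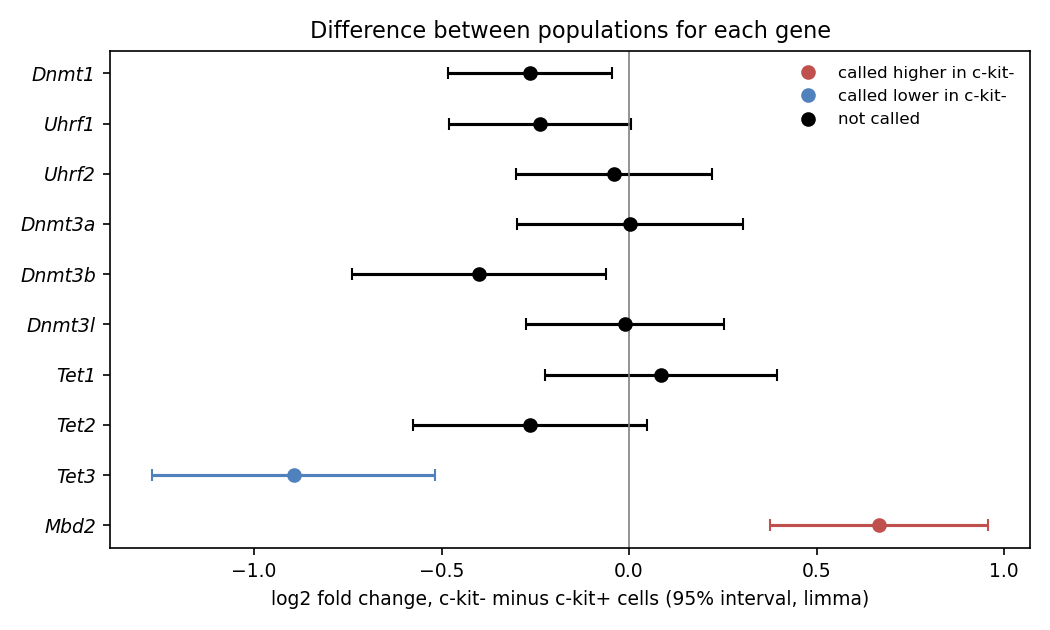
Log2 fold change of each gene (horizontal axis, c-kit- minus c-kit+ cells, n = 3 each) with its 95% interval from limma. Mbd2 (red, 0.67) was called higher and Tet3 (blue, -0.89) lower, and the 8 genes in black were not called.

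The c-kit- arrays themselves differed for these genes. Replicate 1 had the lowest c-kit- value for 7 of the 10 genes and the highest for the other 3 (Dnmt1, Dnmt3l and Mbd2). Over all genes it was the lowest c-kit- array for 34.4% and the highest for 37.9%. Leaving out c-kit- replicate 1 changed none of the calls of the 10 genes.

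Genes whose 6 values most resembled those of a called gene were found by the root mean square difference of values centred on each gene's mean. For Tet3 the nearest were Ddx17, an RNA helicase (0.0540, log2 fold change -0.97, adjusted p = 0.00765), Jph1, a junctophilin (0.0579, -0.81, adjusted p = 0.00988), and Rnf11, a RING finger protein (0.0687, -0.82, adjusted p = 0.00851). For Mbd2 the nearest included Fbxo36, an F-box protein (0.0439, 0.67, adjusted p = 0.00781), and Havcr1, a cell surface receptor (0.0474, 0.62, adjusted p = 0.0117). Havcr1 was read from weak signals, 4.66 to 5.03 in c-kit- samples and 4.14 to 4.36 in c-kit+ samples. The likeness was measured over 6 arrays only.

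**Figure D3:**
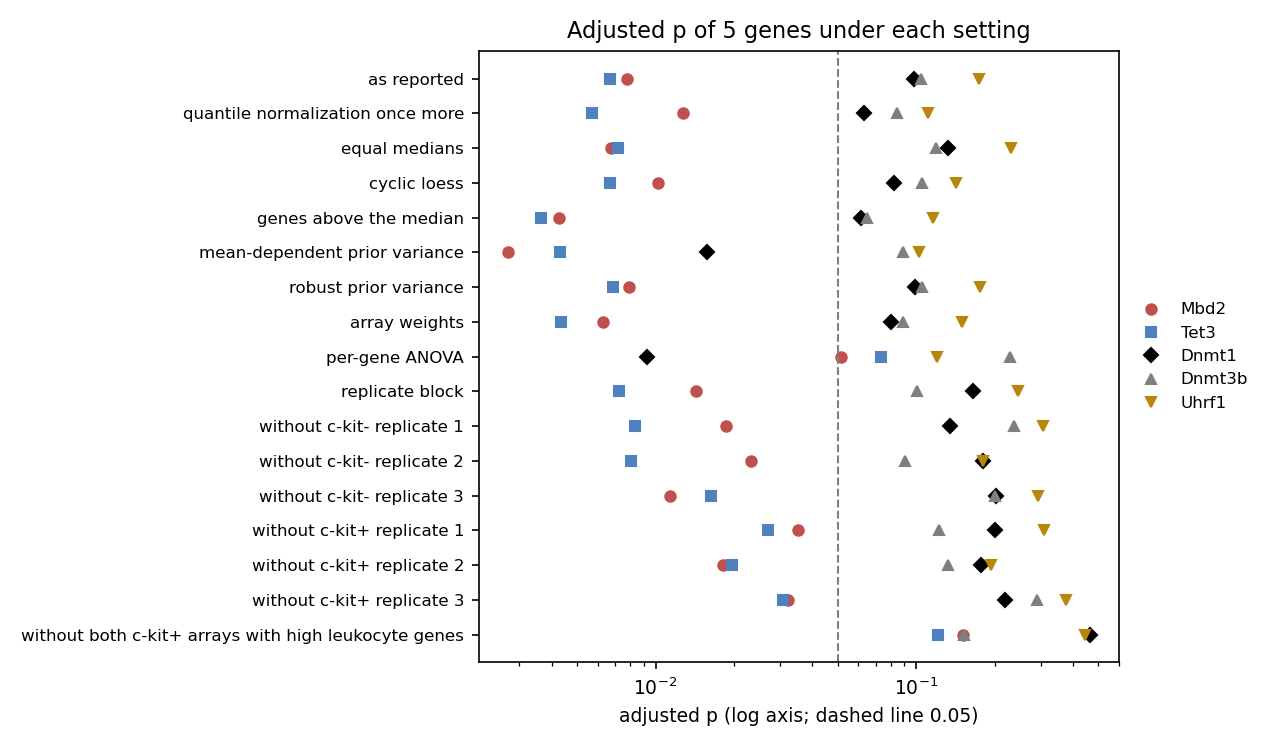
Adjusted p (horizontal log axis, dashed line at 0.05) of Mbd2, Tet3, Dnmt1, Dnmt3b and Uhrf1 in the analysis as reported and in each alternative (rows). Tet3 and Mbd2 lie left of the line except in the per-gene test without shared variance and when both c-kit+ arrays with high leukocyte genes were left out, and Dnmt1 lies left of it in 2 alternatives.

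Partner genes were then examined in 5 lists, with 81 of 83 listed genes in the table. Of these, 22 were called higher and 16 lower in c-kit- cells, 46.9% in all, against 18.1% of all genes. Calls went both ways, and the median log2 fold change was -0.04, as over all genes. The lists were chosen with results of these data known, so their counts are a description. When any 1 array was left out, 19 of the 38 calls held in all 6 fits.

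Of the 12 maintenance partners 6 were called lower and 2 higher in c-kit- cells, with a median log2 fold change of -0.37. Pcna, the sliding clamp of replication, was 10.92, 11.39 and 11.12 in c-kit- samples and 11.79, 11.81 and 11.77 in c-kit+ samples (log2 fold change -0.64, adjusted p = 0.0119). Hells, a chromatin remodeler needed for normal methylation levels, was 10.58, 10.57 and 10.51 in c-kit- samples and 11.07, 10.93 and 11.04 in c-kit+ samples (-0.46, adjusted p = 0.0145). Neither gene overlapped between the populations. The ligase Lig1 changed by -0.47 (adjusted p = 0.0353). Ehmt1 and Ehmt2, which encode the paired H3K9 methyltransferases GLP and G9a, were called in opposite directions, with log2 fold changes of -0.55 (adjusted p = 0.0158) and 0.56 (adjusted p = 0.0397). Cdca7l, a paralog of the HELLS partner Cdca7, was higher by 0.66 (adjusted p = 0.00345). Of these 6 genes, Pcna and Cdca7l kept their call with each array left out, and Hells lost it without c-kit+ replicate 1 or 3 (adjusted p up to 0.0569). Ehmt1 lost it in 3 of the 6 fits (up to 0.0572), Ehmt2 in 4 (up to 0.124) and Lig1 in 5 (up to 0.112).

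Maintenance methylation takes place behind the replication fork, and S phase genes were therefore counted beside it. Of 24 S phase genes 11 were called lower and 2, Chaf1b and Pola1, higher, and 11 were not called, with a median log2 fold change of -0.35. Their mean level was 8.08, 8.19 and 8.01 in c-kit- samples and 8.57, 8.53 and 8.57 in c-kit+ samples, without overlap. In all 54.2% of the S phase genes were called, against 18.1% of all genes. The list was chosen with results of these data known, so its count is a description. With any 1 array left out, 7 to 9 S phase genes were called lower and 2 higher. Dnmt1 and Uhrf1 had log2 fold changes of -0.26 and -0.24 and were not called (adjusted p = 0.0983 and 0.175), and the part of S phase in their values was not tested.

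The 2 largest differences of the 5 lists, those of Spocd1 and Morc1, were among the partners of de novo methylation. Of 17 genes 6 were called higher and 3 lower, with a median log2 fold change of 0.13. Dnmt3c was not analysed here. Spocd1, which links the nuclear Piwi protein to de novo methylation in fetal germ cells, was 7.52, 7.61 and 7.50 in c-kit- samples and 5.40, 5.94 and 6.04 in c-kit+ samples (log2 fold change 1.75, adjusted p = 0.000341). Piwil4, that Piwi protein (MIWI2), was 7.53, 7.88 and 7.22 in c-kit- samples and 6.02, 6.15 and 6.29 in c-kit+ samples (1.39, adjusted p = 0.00108). Morc1, needed for transposon silencing in male germ cells, was 9.61, 9.72 and 9.66 in c-kit- samples and 8.03, 7.87 and 8.21 in c-kit+ samples (1.63, adjusted p = 9.00e-05). All 3 were well separated between the populations. Kdm1b, a demethylase of H3K4 needed for imprints in oocytes, was higher by 0.63 (adjusted p = 0.00443). Tex15, which acts in the same fetal pathway as Spocd1, had the opposite direction, at 9.55, 9.66 and 9.77 in c-kit- samples and 10.41, 10.41 and 10.26 in c-kit+ samples (-0.70, adjusted p = 0.00322). Ctcfl, the testis paralog of CTCF, was also lower (-0.78, adjusted p = 0.0049), as was Setd2, which writes the H3K36 methylation that DNMT3 enzymes read (-0.45, adjusted p = 0.0136). These 7 genes kept their call with each array left out. The c-kit- values of Ctcfl, 4.68 to 5.11, were weak signals below the median of the arrays, 5.28.

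**Figure D4:**
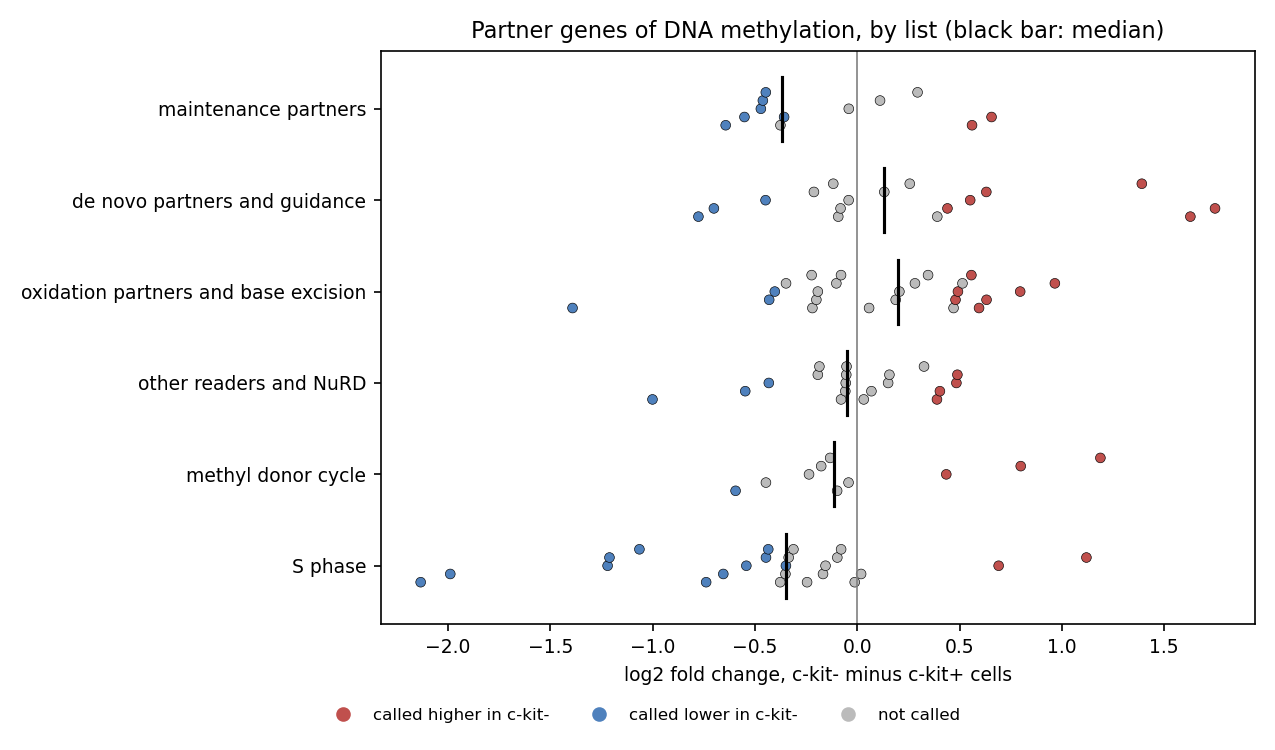
Log2 fold change (horizontal axis, c-kit- minus c-kit+ cells, n = 3 each) of every gene of the 5 partner lists and the S phase list, 1 point per gene, with the median of each list as a black bar. Maintenance partners and S phase genes have medians of -0.37 and -0.35, and the 3 points farthest right among the partner lists are Spocd1, Morc1 and Piwil4.

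Partners of oxidation and base excision were called higher in 7 and lower in 3 of 24 cases, with a median of 0.20. Gadd45b, a stress-induced gene studied as a demethylation adaptor, was 5.91, 6.13 and 6.02 in c-kit- samples and 7.35, 7.12 and 7.77 in c-kit+ samples (log2 fold change -1.39, adjusted p = 0.00103), and Gadd45a was lower by a smaller amount (-0.43, adjusted p = 0.0307). Gadd45g, another paralog, was not called (0.47, adjusted p = 0.149). Ogt, the O-GlcNAc transferase that TET proteins bind, was 9.14, 9.01 and 9.15 in c-kit- samples and 8.37, 8.22 and 8.32 in c-kit+ samples (0.80, adjusted p = 0.00143). Ogt thus had the opposite direction to Tet3. Genes of base excision repair called higher included Parp1 (0.63, adjusted p = 0.00756) and Apex1 (0.60, adjusted p = 0.0134), while the glycosylase Neil3 was lower (-0.40, adjusted p = 0.0419). Apobec3, a cytidine deaminase, was higher by 0.97 (adjusted p = 0.00426). Tdg, the glycosylase that removes oxidized methylcytosine, was not called (-0.35, adjusted p = 0.113) at weak signals of 2.81 to 3.20 in c-kit- samples and 3.24 to 3.46 in c-kit+ samples. Gadd45a, Neil3 and Apex1 lost their call in 5, 4 and 2 of the 6 fits with an array left out. The c-kit- values of Neil3, 5.04 to 5.20, and the c-kit+ values of Apobec3, 4.40 to 4.90, lay below the median of the arrays, 5.28.

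The other readers and NuRD subunits had 4 genes called higher and 3 lower of 19, with a median of -0.05, and those called higher changed by less than Mbd2. Mbd3, the paralog that forms the alternative NuRD complex, was not called (-0.08, adjusted p = 0.687), nor was Mbd1 (-0.05, adjusted p = 0.851). Mta1, a NuRD subunit, was 8.24, 8.77 and 8.77 in c-kit- samples and 9.77, 9.52 and 9.48 in c-kit+ samples (-1.001, adjusted p = 0.00434), with no overlap. Its paralogs Mta2 (0.33, adjusted p = 0.0963) and Mta3 (0.03, adjusted p = 0.892) were not called. Chd4, the remodeling ATPase of NuRD, was 10.05, 10.07 and 10.03 in c-kit- samples and 9.50, 9.54 and 9.66 in c-kit+ samples (0.48, adjusted p = 0.0117). Rbbp4, a histone-binding subunit, was lower (-0.43, limma adjusted p = 0.0291), and its paralog Rbbp7 was not called (-0.06, limma adjusted p = 0.820). Hdac1, a deacetylase of NuRD counted above among the maintenance partners, was lower (-0.45, limma adjusted p = 0.0403). The call of Hdac1 was lost in 4 of the 6 fits with an array left out. Hdac2 (-0.05, limma adjusted p = 0.795) and Chd3 (0.07, limma adjusted p = 0.773) were not called. Of the zinc finger readers, Zbtb38 and Zbtb33 were higher by 0.49 (adjusted p = 0.0394) and 0.40 (adjusted p = 0.0334), and Zbtb4 was lower (-0.55, adjusted p = 0.0202). Mbd5, counted in this list as an MBD family gene rather than as a reader or NuRD subunit, was higher by 0.39 (limma adjusted p = 0.047). Mta1 and Chd4 kept their call with each array left out, and the other 5 called genes of this list lost it in 2 to 6 of the 6 fits. The c-kit- values of Zbtb4, 4.95 to 5.14, lay below the median of the arrays, 5.28.

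In the methyl donor cycle, which supplies S-adenosylmethionine to all methyltransferases, 3 of 10 genes were called higher and 1 lower, with a median of -0.12. Mtr, the methionine synthase, was 9.49, 9.24 and 9.44 in c-kit- samples and 8.19, 8.06 and 8.37 in c-kit+ samples (1.19, adjusted p = 0.00051). The subunits of S-adenosylmethionine synthetase were called in opposite directions. The catalytic subunit Mat2a was 8.97, 9.18 and 9.30 in c-kit- samples and 9.85, 9.68 and 9.71 in c-kit+ samples (-0.59, adjusted p = 0.0109), and the regulatory subunit Mat2b was 8.57, 8.68 and 8.57 in c-kit- samples and 7.83, 7.80 and 7.80 in c-kit+ samples (0.80, adjusted p = 0.00106). Neither overlapped between the populations. Adk, which clears adenosine from the cycle, was higher by 0.43 (adjusted p = 0.0304) and lost its call in 5 of the 6 fits with an array left out. Mtr, Mat2a and Mat2b kept theirs.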

How the data were processed

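The data are 6 arrays (Affymetrix Mouse Gene 2.0 ST), 3 of c-kit- and 3 of c-kit+ spermatogonia. The authors normalized the arrays by RMA in R and Bioconductor and deposited log2 values, 1 per Entrez gene ID. The version of RMA and the probe set definition are not given in the sources used here. RMA gives all arrays the same distribution of probe signals, so a change shared by most genes would not be seen. The values per gene still differed slightly in distribution, with array medians between 5.25 and 5.33. Of 24973 genes, 24481 were named from a RefSeq table, 93 from the platform's table, and 399 are known by ID only.

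An unpaired limma fit (limma 3.58.1, R 4.3.3, default eBayes) covered every gene, with Benjamini-Hochberg adjustment over the whole table and calls at an adjusted p under 0.05. The ANOVA per gene of the study's methods was run as an alternative. limma was used because it shares information on the variance. Paralog differences were compared by exact permutation, two-sided. The number of arrays limits the precision. The limma fit was also run on simulated data with independent normal noise for each gene. Signals shared between arrays, such as the leukocyte genes, were not simulated, so that run does not cover them.

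The 10 genes and all lists were chosen with earlier results of these data known. The text names every one of the 10, Kit, up to 4 called genes per pathway list and direction, and the 3 genes nearest in pattern to the called gene with the largest change in each direction. Genes outside this rule (uncalled paralogs, Tdg, Hdac1, marker and S phase genes in counts of 5 or fewer) were named after their values were seen. Of the genes nearest in pattern, 1 is not reported here. Alternatives covered scaling, a filter on weak signals, the variance model, array weights, the replicate number and left-out arrays.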

Additional observations from a re-analysis of the deposited data

How the results depend on the processing

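Tet3 and Mbd2 were each called in 14 of 16 alternatives. Without shared variance (the per-gene test of the methods) Tet3 stayed at -0.89 (adjusted p = 0.0730) and Mbd2 at 0.67 (0.0514). When both c-kit+ arrays with high leukocyte genes (replicates 1 and 2) were left out, an alternative chosen after seeing the data that leaves 1 c-kit+ array assumed to vary like the c-kit- group, they had -1.01 (0.121) and 0.68 (0.151). Dnmt1 (-0.26) was called with a mean-dependent prior variance (0.0157) and in the per-gene test (0.00924). Of the 10 genes, those called higher numbered 0 in the per-gene test and 0 without both arrays, and those called lower 2 with the mean-dependent variance and 0 without both arrays. In the per-gene test 1 was called lower, Dnmt1. With any 1 array left out, 1 gene was called in each direction.

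Differences near 0 changed sign. Uhrf2 was at 0.0042 with array weights and 0.029 without both arrays, with a range of -0.0794 to 0.0269 over single arrays left out. Dnmt3a was at -0.0088 after quantile normalization once more and -0.083 without both arrays, with a range of -0.11 to 0.10. Dnmt3l was at 0.051 after quantile normalization and 0.060 after cyclic loess, with a range of -0.10 to 0.0443. Under the filter on weak signals Dnmt3l, Tet1 and Tet2 were not tested. Dnmt3b ranged from -0.66 to -0.27 and Uhrf1 from -0.30 to -0.20 over all alternatives, and neither was called in any.

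Of all genes, 2331 were called higher and 2196 lower, against 1307 and 1205 in the per-gene test and 527 and 239 without both arrays. The study's thresholds, applied here to the limma p before adjustment, gave 1782 higher and 1451 lower. The study's own counts came from its ANOVA and differ from these. Single arrays left out gave 1727 to 2195 higher and 1478 to 1889 lower. Partner genes called numbered 14 higher and 6 lower in the per-gene test, 3 and 1 without both arrays, and 12 to 20 and 9 to 14 with single arrays left out.

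Same-numbered samples had correlations of 0.0999, 0.0973 and 0.137 between their deviations from the group means, and each sample correlated best with its own number, but nothing in the labels says that a number marks a shared mouse or day. With the replicate block 2350 genes were called higher and 2163 lower, 1 of the 10 genes in each direction, and 19 and 13 partner genes. Tet3 and Mbd2 had adjusted p of 0.00721 and 0.0144. The block changed no call among the 10 genes.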
